A study of Mus musculus with 6 samples.

Results

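The genes that encode the subunits of mitochondrial complexes II, III, IV and V from the nucleus were followed in gonadal white adipose tissue (gWAT) of lean and obese mice. They were taken by symbol, as Sdha to Sdhd for complex II, every symbol starting with Uqcr for complex III, Cox4 to Cox8 for complex IV and Atp5 for complex V. This gave 46 of the 19790 genes counted, of which 4 belong to complex II, 8 to complex III, 17 to complex IV and 17 to complex V. RNA-seq had been performed on gWAT of 6 wild-type male C57BL/6 mice, 3 on a normal chow diet (NCD) and 3 on a high-fat diet (HFD), each for 8 weeks. The diets began at 6 weeks of age per the labels, whereas the study's methods give 8 weeks for the HFD. The labels call all 6 mice WT, and no drug was named for them. The study's methods use WT for *Tmem86a*-floxed mice without Cre and also list purchased C57BL/6 mice. They do not say which of these gave the libraries. Each library came from gWAT of 1 mouse and not from isolated cells, so its RNA is a mixture of adipocytes, immune cells, vessels and stroma.

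Complexes II, III and IV pass electrons from succinate and from ubiquinol towards oxygen in the inner mitochondrial membrane, and complexes III and IV pump protons while they do so. Complex V, the ATP synthase, lets the protons back through a rotating ring in the membrane and uses the rotation to make ATP in its F1 head. White adipocytes hold fewer mitochondria than brown ones, but they rely on them for lipid synthesis, for the handling of fatty acids and for adipokine secretion.

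The libraries held 49575113 to 66360046 counts. NCD mouse 1 stood apart, because 11 genes of seminal vesicle secretion took 58.6% of its counts, against 11.2% in NCD mouse 2, 2.30% in NCD mouse 3 and at most 1.21e-05% in any HFD mouse. In the same library the 14 adipocyte markers took 0.318% of the counts, whereas they took 2.50% and 3.56% in the other NCD mice and 1.79% to 2.37% in the HFD mice, with none of the 14 at 0 in either group. Each result is therefore given with all 6 mice and without NCD mouse 1. Leaving that mouse out does not separate the seminal vesicle transcripts from diet, because NCD mice 2 and 3 hold them too. All 11 genes still had a log2 fold change below 0 on HFD without it. Levels are CPM after TMM scaling (TMM CPM), fold changes are HFD relative to NCD on the log2 scale, and a gene is called changed where edgeR's quasi-likelihood test gave a Benjamini-Hochberg adjusted p under 0.05 over all genes tested.

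Summed over the 46 genes, the level was 5356, 8346 and 9394 TMM CPM in NCD mice 1, 2 and 3 and 4932, 4642 and 4621 TMM CPM in HFD mice 1, 2 and 3. All HFD mice thus lay below all NCD mice, and they lay much closer together, with means of 7699 ± 2095 (SD, n = 3) on NCD and 4732 ± 174 (SD, n = 3) on HFD. The NCD mean was 1.63-fold the HFD mean, and 1.87-fold without NCD mouse 1. As a plain share of all counts the genes took 0.265%, 0.853% and 1.01% in the NCD mice and 0.570%, 0.584% and 0.585% in the HFD mice, so that on this scale NCD mouse 1 was the lowest of all 6 mice and the diets overlapped. NCD mouse 3, with the smallest share of seminal vesicle transcripts in its group, had the highest level.

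**Figure D1:**
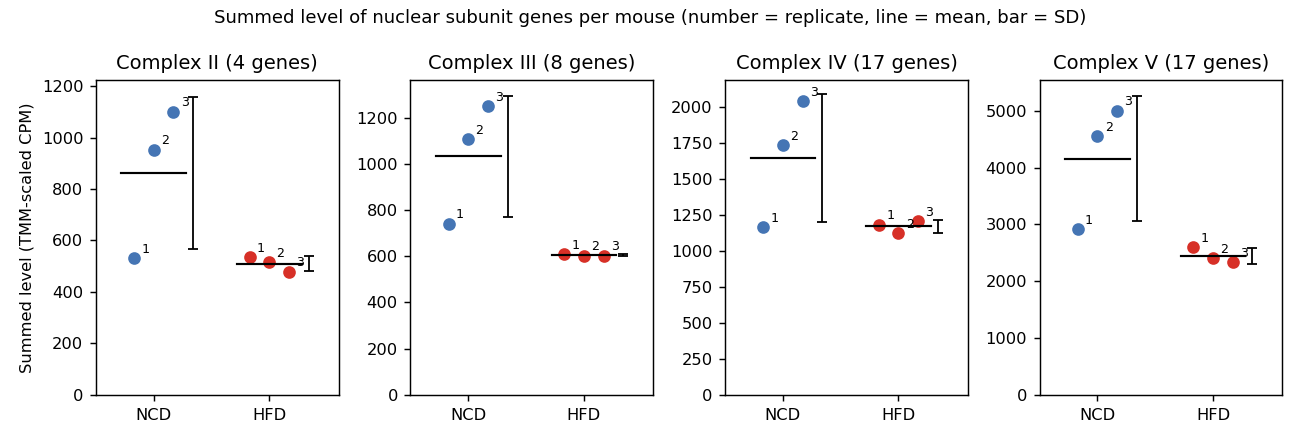
Summed level in TMM-scaled CPM (vertical axis, starting at 0) of the genes of each complex in each mouse on NCD (blue) and HFD (red), with the mean as a line and the SD as a bar. The 3 HFD mice sit close together in every complex, NCD mice 2 and 3 lie above them, and NCD mouse 1 lies above them in complexes III and V and among them in complexes II and IV.

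By complex, the summed level in TMM CPM of complex II was 532, 952 and 1101 in the NCD mice and 536, 515 and 479 in the HFD mice, so the diets overlapped through NCD mouse 1. Complex III gave 740, 1106 and 1249 TMM CPM against 610, 602 and 602, and complex V gave 2917, 4551 and 5000 against 2603, 2401 and 2335. In both of these every NCD mouse was above every HFD mouse. Complex IV gave 1166, 1737 and 2045 TMM CPM against 1183, 1125 and 1207, and its mean was 1.41-fold higher on NCD, or 1.61-fold without NCD mouse 1. The corresponding folds were 1.69 and 2.01 for complex II, 1.71 and 1.95 for complex III and 1.70 and 1.95 for complex V.

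Gene by gene, 45 of the 46 members had enough counts to be tested. With all 6 mice, *Uqcrc2* was the 1 member called lower on HFD and none was called higher, where edgeR called 1.90% of the 15241 genes tested lower and 5.58% higher. An unadjusted p under 0.05 was reached by 20 members, where 29.7% of all genes tested reached it, and DESeq2 called 13 lower and 1 higher, against 10.4% and 12.5% of the genes for which it gave an adjusted p. Without NCD mouse 1, edgeR called 34 members lower and 1, *Cox6a2*, higher, against 10.1% and 10.7% of 15510 genes. The median log2 fold change of the members was -0.55 with all 6 mice, beside -0.078 over all genes tested, and -0.73 without NCD mouse 1, beside 0.016.

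Of the 45 members, 40 had a log2 fold change below 0 with all 6 mice and 41 without NCD mouse 1. In 19 of them every HFD mouse lay below every NCD mouse, and in 1, *Cox6a2*, every HFD mouse lay above, where 18.7% and 20.5% of all genes tested did so. Without NCD mouse 1 the members that did so numbered 38 and 3, beside 28.1% and 28.5% of all genes tested. The direction rested on the scaling for some members. When counts were divided by the library totals alone, the median over all genes went from -0.078 to 0.45, the median of the members was -0.14 and 9 members changed sign, *Sdhc*, *Uqcrq*, *Cox6a1*, *Cox6c*, *Cox7a2l*, *Atp5e*, *Atp5g2*, *Atp5j2* and *Atp5pb*. Fewer cells of a type and less RNA per cell cannot be told apart in whole tissue.

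**Figure D2:**
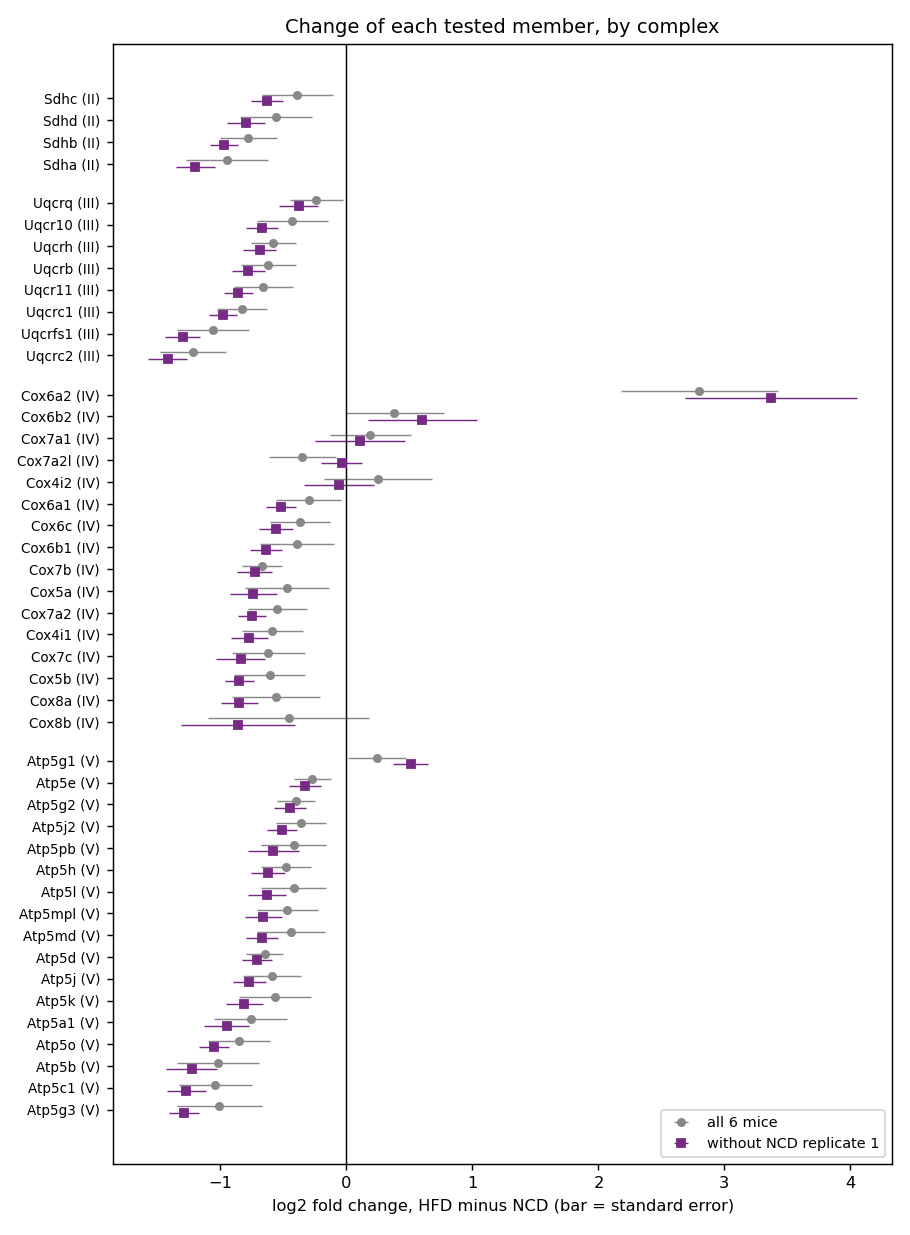
Log2 fold change, HFD minus NCD, of each tested member (horizontal axis, bars are standard errors), grouped by complex, with all 6 mice (grey circles) and without NCD replicate 1 (purple squares). Most members lie to the left of 0 and move further left without NCD replicate 1, while *Cox6a2* stands far to the right at 2.80 and 3.37, and 9 members cross 0 if counts are scaled by library totals alone.

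Complex II, succinate dehydrogenase, is the only respiratory complex whose subunits are all nuclear and the only one that is also an enzyme of the citric acid cycle. Without NCD mouse 1 all 4 of its genes were called lower, and with all 6 mice none was. *Sdha*, the flavoprotein that oxidises succinate, was measured at 269, 515 and 584 TMM CPM in the NCD mice and at 251, 248 and 210 in the HFD mice. Every NCD mouse was above every HFD mouse, with NCD mouse 1 only just so. The log2 fold change came to -0.95 (standard error 0.324, edgeR adjusted p = 0.118 by the quasi-likelihood test) and became -1.20 (standard error 0.156, adjusted p = 0.00901) without that mouse.

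*Sdhb*, the iron-sulphur subunit that takes the electrons from Sdha, had levels of 90.7, 142 and 155 TMM CPM on NCD and 78.1, 75.6 and 71.7 on HFD. The diets were again apart, with log2 fold changes of -0.78 with all 6 mice and -0.97 without NCD mouse 1 (edgeR adjusted p = 0.0857 and 0.00739). *Sdhd*, which anchors the enzyme in the membrane with Sdhc, had 89.5, 149 and 190 TMM CPM on NCD and 104, 92.3 and 93.8 on HFD. Here NCD mouse 1 lay below all HFD mice, and the log2 fold change was -0.56 with all mice and -0.80 without it (edgeR adjusted p = 0.243 and 0.0209). For *Sdhc* the values were -0.39 and -0.63 (edgeR adjusted p = 0.386 and 0.0233).

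Complex III, the cytochrome bc1 complex, held the 1 member called with all 6 mice. *Uqcrc2*, a core subunit that faces the matrix and scaffolds the complex, was measured at 154, 241 and 276 TMM CPM on NCD and at 106, 99.0 and 82.1 on HFD. The diets did not overlap, and the NCD mean of 223 ± 62.9 (SD, n = 3) was above the HFD mean of 95.7 ± 12.3 (SD, n = 3). It fell by 1.22 on the log2 scale (standard error 0.260, adjusted p = 0.0463 by edgeR's quasi-likelihood test), a 2.33-fold lower level, and by 1.42 without NCD mouse 1 (adjusted p = 0.00686 by the same test). The call with all 6 mice was lost without a filter on low counts, with upper-quartile scaling, with library totals alone and when any mouse other than NCD mouse 1 was left out, with log2 fold changes of -0.82 to -1.30 and adjusted p from 0.0530 to 0.361.

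Its partner *Uqcrc1* had 151, 221 and 217 TMM CPM on NCD and 117, 110 and 104 on HFD. *Uqcrfs1*, the Rieske iron-sulphur protein that moves electrons to cytochrome c1, had 88.5, 152 and 187 TMM CPM on NCD and 73.6, 66.7 and 64.4 on HFD. Both genes were higher in every NCD mouse than in any HFD mouse. With all 6 mice their log2 fold changes were -0.83 and -1.06 (edgeR adjusted p = 0.0579 and 0.0743), and without NCD mouse 1 both were called lower, at -0.98 and -1.30 (edgeR adjusted p = 0.00758 and 0.00686). The median over these 3 catalytic and core genes was -1.06 with all mice and -1.30 without NCD mouse 1, whereas the 5 small subunits *Uqcrb*, *Uqcrh*, *Uqcrq*, *Uqcr10* and *Uqcr11* had medians of -0.58 and -0.69. Without NCD mouse 1 all of the 5 small subunits but *Uqcrq* were called lower, *Uqcrq* having a log2 fold change of -0.38 (edgeR adjusted p = 0.129).

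Complex IV, cytochrome c oxidase, hands the electrons to oxygen. Its catalytic core is made by mitochondrial genes, which were not analysed here, and the nuclear subunits surround and regulate it. Of the 10 widely expressed nuclear subunits, none was called with all 6 mice and all 10 were called lower without NCD mouse 1, with log2 fold changes of -0.52 to -0.85. *Cox4i1*, the largest nuclear subunit and the site of regulation by ATP, was measured at 214, 317 and 365 TMM CPM on NCD and at 211, 182 and 201 on HFD. The NCD mice were all higher, NCD mouse 1 by a narrow margin, and the log2 fold change was -0.59 with all mice and -0.77 without NCD mouse 1 (edgeR adjusted p = 0.167 and 0.0204).

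*Cox7b*, a small membrane subunit, had NCD mouse 1 close to the other NCD mice, with 95.5, 102 and 123 TMM CPM on NCD and 64.6, 64.4 and 72.7 on HFD. Its diets were clearly apart, and its log2 fold change of -0.67 missed the threshold with all mice and passed it without NCD mouse 1 at -0.73 (edgeR adjusted p = 0.0563 and 0.0211). *Cox7c* had 72.5, 107 and 154 TMM CPM on NCD and 67.0, 69.4 and 80.6 on HFD, so that NCD mouse 1 fell within the HFD range. *Cox5b*, which binds zinc on the matrix side, had 76.9, 145 and 155 TMM CPM on NCD and 78.6, 80.9 and 86.9 on HFD. In that gene NCD mouse 1 was the lowest of all mice, and the log2 fold change went from -0.61 to -0.85 when it was left out (edgeR adjusted p = 0.204 and 0.00962).

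The symbols also bring in *Cox7a2l*, which encodes a factor that joins complexes III and IV into supercomplexes. Its level was highest in NCD mouse 1, with 171 TMM CPM there, 101 and 101 in NCD mice 2 and 3 and 118, 88.3 and 86.8 in the HFD mice. The diets overlapped with and without NCD mouse 1, and the log2 fold change was -0.35 and -0.038 (edgeR adjusted p = 0.416 and 0.887).

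Among the members of complex IV are 6 tissue isoforms, *Cox6a2*, *Cox7a1* and *Cox8b* of heart and skeletal muscle, which brown fat also expresses, *Cox4i2* of lung, vessel wall and other cells that sense low oxygen, and *Cox6b2* and *Cox8c* of testis. They were scarce in gWAT. Per kilobase of exon, the 6 isoforms lay between 0 and 7.24 TMM CPM in every mouse, *Atp5g1* between 6.49 and 10.5, *Atp5md* between 13.7 and 28.2, and every other member at 26.0 or above, while *Atp5b* had the highest value of all members in each mouse, from 297 to 815. As ratios within a library do not depend on the scaling, each isoform was also set against its widely expressed partner in the same mouse, per kilobase of exon and with 0.5 counts added to both.

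*Cox6a2* had the largest log2 fold change of all members. It received 4, 2 and 3 counts in the NCD mice and 31, 27 and 35 in the HFD mice. All HFD mice were far above all NCD mice, at a level that stayed under 1 TMM CPM throughout. The ratio of the summed counts after TMM scaling was 7.42, HFD over NCD, with an exact 95% interval of 3.75 to 16.7 that covers counting error only. The log2 fold change was 2.80 (edgeR adjusted p = 0.0507), just short of the threshold. Cox6a2 was called higher without NCD mouse 1 at 3.37 (edgeR adjusted p = 0.0249) and by DESeq2 (adjusted p = 0.00533). With library totals alone or with the seminal vesicle genes removed edgeR also called it higher (adjusted p = 0.0358 and 0.0494). It was not called without a filter on low counts, with median-of-ratios or upper-quartile scaling or by limma. Nor was it called when any mouse other than NCD mouse 1 was left out. Its NCD counts were below the minimum count of 10 of the filter, so it entered the filtered tests through the HFD mice alone. The p-values of those tests are therefore not independent of a high HFD level.

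Its partner *Cox6a1* had 105, 179 and 197 TMM CPM on NCD and 128, 127 and 135 on HFD, and was called lower without NCD mouse 1 at -0.52 (edgeR adjusted p = 0.0345). Cox6a2 stood at 0.109%, 0.0196% and 0.0278% of Cox6a1 in the NCD mice and at 0.358%, 0.218% and 0.352% in the HFD mice. The ratio was thus higher in every HFD mouse. The mean log2 ratio differed by 2.95 units, and an exact permutation test (two-sided) of 3 mice against 3 cannot go below the p = 0.1 that it returned, or 0.267 after adjustment over the 8 ratios tested. The 15 striated muscle markers summed to 423, 45.2 and 14.6 TMM CPM in the NCD mice and to 12.4, 11.7 and 12.0 in the HFD mice, with *Myh6* at 0 in both groups, *Myh7* at 0 on NCD and *Myh4* at 0 on HFD. Of the 8 tested with all 6 mice, 5 had a log2 fold change below 0 and 3 above, and edgeR called *Casq1* higher on HFD with all mice and without NCD mouse 1, where it also called *Acta1* and *Tnnc2* lower. The part of muscle RNA in Cox6a2 was not tested.

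The other isoforms gave smaller differences. *Cox4i2* had 1.13, 2.38 and 3.28 TMM CPM on NCD and 2.95, 2.46 and 2.66 on HFD, and relative to Cox4i1 it stood at 0.519%, 0.730% and 0.873% on NCD and at 1.36%, 1.31% and 1.29% on HFD. The ratio was therefore higher in all HFD mice although the level itself overlapped, with log2 fold changes of 0.25 and, without NCD mouse 1, -0.058. The 8 mural cell markers summed to 224, 574 and 699 TMM CPM on NCD and to 551, 480 and 377 on HFD, and their part in the ratio was not tested.

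*Cox7a1* had 1.00, 1.15 and 1.32 TMM CPM on NCD and 1.07, 1.32 and 1.58 on HFD, while its partner *Cox7a2* had 54.9, 89.0 and 97.2 on NCD and 55.5, 52.0 and 57.1 on HFD. The isoform overlapped between the diets, and the partner was called lower without NCD mouse 1 at -0.75 (edgeR adjusted p = 0.0118). Relative to Cox7a2, Cox7a1 stood at 2.29%, 1.61% and 1.69% on NCD and at 2.41%, 3.14% and 3.42% on HFD, higher in all HFD mice. For both *Cox4i2* and *Cox7a1* the log2 ratio gave p = 0.1 in the exact two-sided permutation test, its lower limit here, and 0.267 after adjustment.

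*Cox8b* received 15, 78 and 140 counts on NCD and 78, 66 and 66 on HFD, or 0.457 to 2.61 and 0.791 to 1.35 TMM CPM, and its partner *Cox8a* had 126, 261 and 324 TMM CPM on NCD and 165, 163 and 155 on HFD. The log2 fold change of Cox8b was -0.46 with all mice and -0.86 without NCD mouse 1 (edgeR adjusted p = 0.659 and 0.219), and it turned to 0.27 without NCD mouse 3. Relative to Cox8a it spanned 0.573% to 1.23% on NCD and 0.746% to 1.26% on HFD, which is complete overlap. The 7 markers of brown and beige adipocytes summed to 1.77, 6.61 and 6.25 TMM CPM on NCD and to 22.5, 10.2 and 15.6 on HFD, higher in every HFD mouse. Of the 4 tested, 2 had a log2 fold change above 0 and 2 below, and *Otop1* was called higher by edgeR with all mice and without NCD mouse 1, while DESeq2 also called *Dio2* lower. *Ucp1* had no count in any NCD mouse and 6 in each HFD mouse, and *Zic1* had none in any of the 6 mice. Their part in the isoforms was not tested.

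*Cox6b2* had 1.00, 0.786 and 0.558 TMM CPM on NCD and 0.867, 1.31 and 0.861 on HFD, beside 99.9, 185 and 214 on NCD and 130, 121 and 130 on HFD for its partner *Cox6b1*. The ratio overlapped between the diets, with a difference of 0.69 log2 units (exact two-sided permutation p = 0.300). Without NCD mouse 1 the diets were apart, with a difference of 1.22 (exact two-sided permutation p = 0.1, and 0.133 after adjustment). *Cox8c* was the member without enough counts to be tested. It had 12 counts in HFD mouse 1 and none in the other 5 mice, where 3 counts is the floor that a count of 0 allows. The 8 spermatid and sperm markers summed to 4.75 TMM CPM in the same mouse and to at most 0.518 in any other, and their part in Cox8c was not tested.

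**Figure D3:**
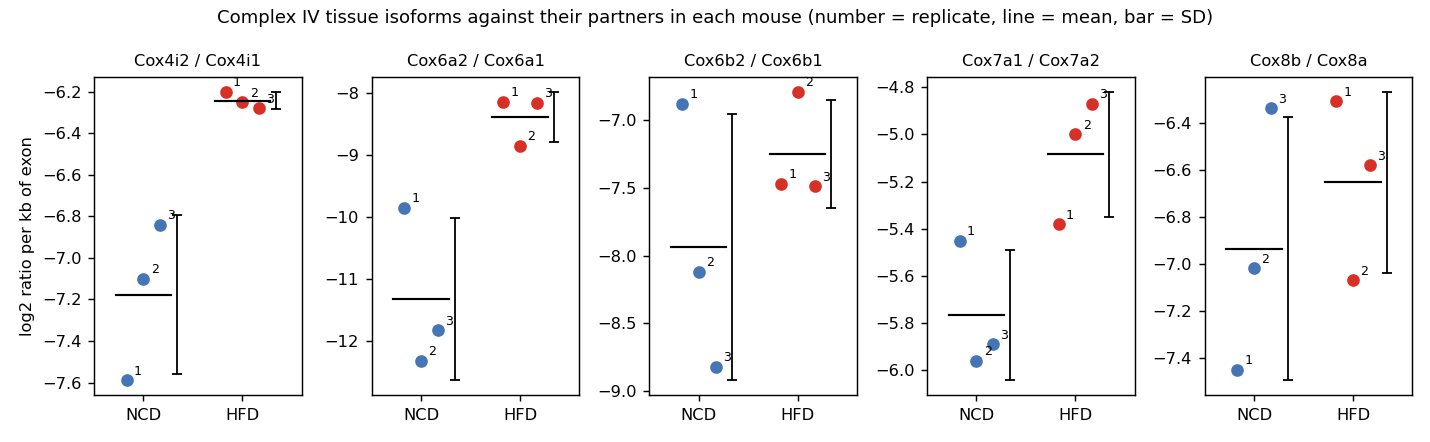
Log2 ratio of a tissue isoform of complex IV to its widely expressed partner, per kilobase of exon, in each NCD (blue) and HFD (red) mouse, numbered by replicate, with the mean as a line and the SD as a bar. The diets are apart for Cox4i2, Cox6a2 and Cox7a1, where all HFD mice are higher, and overlap for Cox6b2 and Cox8b.

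Complex V, the ATP synthase, has a catalytic F1 head, a peripheral stalk that holds the head still, a rotor ring of c subunits and small membrane subunits that pair the enzymes into dimers. Without NCD mouse 1, 13 of its 17 genes were called lower, and with all 6 mice none was. *Atp5b*, the catalytic beta subunit, was measured at 899, 1532 and 1561 TMM CPM on NCD and at 754, 641 and 568 on HFD. *Atp5c1*, the gamma subunit that turns inside the head, had 193, 329 and 382 TMM CPM on NCD and 164, 144 and 132 on HFD. *Atp5a1*, the alpha subunit, had 594, 934 and 1003 TMM CPM on NCD and 564, 481 and 449 on HFD.

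In these 3 genes of the head every NCD mouse exceeded every HFD mouse. Their log2 fold changes with all mice were -1.02, -1.04 and -0.76 (edgeR adjusted p = 0.105, 0.0773 and 0.145), and without NCD mouse 1 they were called lower at -1.23, -1.27 and -0.95 (edgeR adjusted p = 0.0148, 0.00810 and 0.0206). *Atp5d*, the delta subunit at the foot of the head, had values close together within each diet, 138, 157 and 163 TMM CPM on NCD and 106, 93.5 and 92.1 on HFD, with a log2 fold change of -0.65 (edgeR adjusted p = 0.0535). It was called lower by limma on log2(CPM + 1) with all 6 mice (adjusted p = 0.0430), by DESeq2 (adjusted p = 9.00e-04) and by edgeR without NCD mouse 1 at -0.71. *Atp5e*, the epsilon subunit next to it, had -0.27 with all mice and -0.33 without NCD mouse 1 (edgeR adjusted p = 0.260 and 0.124).

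Among the 4 stalk genes, *Atp5o*, which caps the head, had 117, 193 and 206 TMM CPM on NCD and 101, 97.2 and 88.4 on HFD. The NCD mice were all higher, and the log2 fold change was -0.85 with all mice and -1.05 without NCD mouse 1 (edgeR adjusted p = 0.0850 and 0.00703). *Atp5h* and *Atp5j* were also called lower without NCD mouse 1, at -0.62 and -0.77, and *Atp5pb* had -0.58 (edgeR adjusted p = 0.0924). The 5 small membrane subunits *Atp5j2*, *Atp5k*, *Atp5l*, *Atp5md* and *Atp5mpl* were all called lower without NCD mouse 1, at -0.51 to -0.81, while with all 6 mice their diets overlapped in each case. By role, the median log2 fold change with all mice and without NCD mouse 1 was -0.76 and -0.95 for the head, -0.54 and -0.70 for the stalk and -0.44 and -0.66 for the small membrane subunits.

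The c subunit, of which the rotor ring is built, is made from 3 genes, *Atp5g1*, *Atp5g2* and *Atp5g3*, whose precursors differ in the part that guides import and end in the same 78 amino acids. The coding stretches for that shared end are shown because the 3 genes ran differently and, within this stretch, silent differences are all that tells their reads apart. Capitals mark the 63 of 234 positions at which the genes do not all have the same base, and the sequences are from GENCODE vM21 (GRCm38), read 5′ to 3′ on the coding strand from exons 4 and 5 of 5. Atp5g1 lies at chr11:96073107-96073644, Atp5g2 at chr15:102663017-102665175 and Atp5g3 at chr2:73908596-73909305, each on the minus strand.
Atp5g1: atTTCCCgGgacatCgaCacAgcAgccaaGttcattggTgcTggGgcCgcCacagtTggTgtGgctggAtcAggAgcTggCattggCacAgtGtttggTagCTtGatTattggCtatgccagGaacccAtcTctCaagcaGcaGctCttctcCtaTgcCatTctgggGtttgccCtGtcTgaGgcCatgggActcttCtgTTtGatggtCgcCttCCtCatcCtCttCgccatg
Atp5g2: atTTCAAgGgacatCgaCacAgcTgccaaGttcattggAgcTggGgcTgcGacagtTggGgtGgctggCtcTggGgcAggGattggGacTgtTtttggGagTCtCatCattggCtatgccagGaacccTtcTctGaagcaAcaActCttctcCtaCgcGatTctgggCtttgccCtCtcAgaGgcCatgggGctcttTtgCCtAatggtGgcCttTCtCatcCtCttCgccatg
Atp5g3: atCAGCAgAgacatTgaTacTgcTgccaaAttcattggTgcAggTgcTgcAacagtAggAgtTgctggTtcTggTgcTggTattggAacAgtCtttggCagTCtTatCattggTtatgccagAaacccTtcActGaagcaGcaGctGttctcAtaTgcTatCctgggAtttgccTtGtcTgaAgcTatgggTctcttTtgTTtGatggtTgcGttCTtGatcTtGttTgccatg
Over this stretch Atp5g1 and Atp5g2 were 84.6% identical, Atp5g1 and Atp5g3 78.6%, and Atp5g2 and Atp5g3 77.4%, and the longest run without a difference was 20, 11 and 8 bases. The treatment of reads that also match pseudogenes of these genes was not given.

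*Atp5g3* was measured at 142, 308 and 336 TMM CPM on NCD and at 126, 131 and 133 on HFD. NCD mouse 1 lay close to the HFD mice and far from the other NCD mice. At -1.01 it missed the threshold with all mice (standard error 0.337, edgeR adjusted p = 0.113), and it was called lower without NCD mouse 1 at -1.29 (standard error 0.122, edgeR adjusted p = 0.00628). *Atp5g2* had 88.4, 97.6 and 108 TMM CPM on NCD and 67.8, 75.6 and 79.9 on HFD, apart in every mouse, with -0.40 and -0.45 (edgeR adjusted p = 0.139 and 0.0583). *Atp5g1* was the 1 widely expressed member with a log2 fold change above 0. It had 50.4, 32.0 and 31.9 TMM CPM on NCD and 41.4, 51.7 and 42.0 on HFD, and its log2 fold change of 0.24 became 0.51 without NCD mouse 1 (edgeR adjusted p = 0.507 and 0.0515).

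The makeup of the counts of the 3 genes differed between mice. Atp5g3 took 50.6%, 70.4% and 70.6% of them in the NCD mice and 53.7%, 50.7% and 52.2% in the HFD mice. Atp5g1 took 18.0%, 7.30% and 6.70% on NCD and 17.6%, 20.0% and 16.5% on HFD. On both measures NCD mouse 1 lay close to the HFD mice, and NCD mice 2 and 3 stood together. For NCD mouse 1 the 95% Wilson interval of the Atp5g3 share was 49.5% to 51.6%, which covers counting error only. The log2 ratio of Atp5g1 to Atp5g3 was 1.18 units higher on HFD (exact two-sided permutation p = 0.300), and 1.80 units higher without NCD mouse 1, where the exact permutation test of 2 mice against 3 returned p = 0.1, the lowest it can. These are shares of reads and not of transcripts, since the exons of Atp5g1 add up to 4912 bases, those of Atp5g2 to 731 and those of Atp5g3 to 724. The share of seminal vesicle transcripts was highest in NCD mouse 1, and its part in the makeup was not tested.

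**Figure D4:**
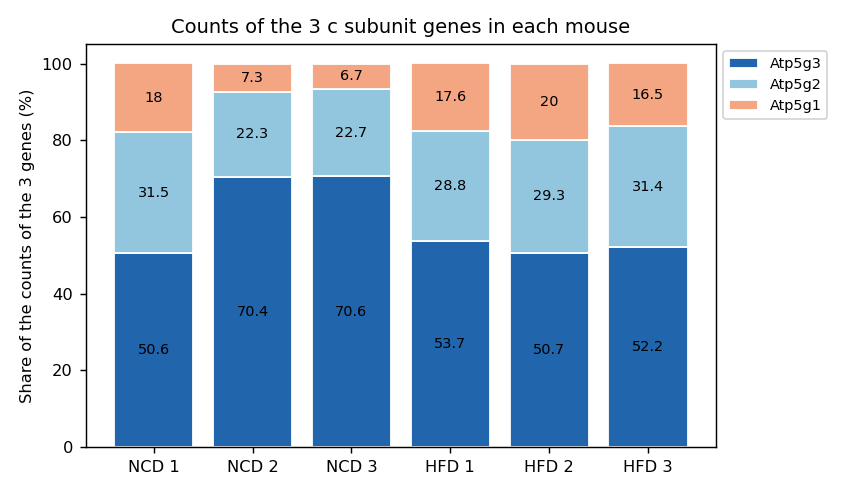
Share in percent (vertical axis, starting at 0) of the counts of the 3 c subunit genes that fell on each gene in each mouse. NCD replicate 1 and the 3 HFD mice have Atp5g3 near 50.6% to 53.7%, whereas NCD replicates 2 and 3 have it at 70.4% and 70.6% and Atp5g1 at 7.30% and 6.70%.

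Several nuclear genes of the respiratory chain carry sites for the factors NRF1, GABP, ERR and YY1 near their start, through which PGC-1alpha and related coactivators are known to raise mitochondrial gene expression. RefSeq promoter windows of 300 bases (250 before and 50 from the start on, GRCm38.p6) were at hand for 35 of the 46 members, 32 widely expressed genes and 3 tissue isoforms. Both strands were searched for GCGCANGCG (NRF1), CCGGAAG (GABP), TCAAGGTCA (ERR) and AAGATGGCG (YY1), and matches of different motifs did not overlap in the sequences printed here. The NRF1 letters were found in 12 of the 32 widely expressed members (37.5%), against 11.5% of the 14900 counted genes with a window, and the GABP letters in 13 (40.6%), against 15.3%. The ERR letters were found in 2, *Sdhd* and *Atp5g3* (6.25%, against 0.369%), and the YY1 letters in 2, *Atp5j* and *Atp5j2* (6.25%, against 2.58%), while the 3 isoforms held none of the 4 motifs. The YY1 matches in members appeared only after the YY1 letters had been shortened. A match is a description of the sequence and not of binding.

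The 250 bases before the start are shown for *Sdha*, which has 3 NRF1 matches there, and for the 3 c subunit genes, which ran apart, with motif matches in capitals and the sequence read 5′ to 3′ along the gene. They lie on the minus strand of GRCm38.p6, at chr13:74350241-74350490 for Sdha, chr11:96075632-96075881 for Atp5g1, chr15:102671048-102671297 for Atp5g2 and chr2:73911327-73911576 for Atp5g3.
Sdha: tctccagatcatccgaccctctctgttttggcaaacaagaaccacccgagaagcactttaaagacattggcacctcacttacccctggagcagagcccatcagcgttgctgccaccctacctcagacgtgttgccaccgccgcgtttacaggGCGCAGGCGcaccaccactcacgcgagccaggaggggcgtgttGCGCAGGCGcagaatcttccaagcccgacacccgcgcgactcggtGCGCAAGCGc
Atp5g1: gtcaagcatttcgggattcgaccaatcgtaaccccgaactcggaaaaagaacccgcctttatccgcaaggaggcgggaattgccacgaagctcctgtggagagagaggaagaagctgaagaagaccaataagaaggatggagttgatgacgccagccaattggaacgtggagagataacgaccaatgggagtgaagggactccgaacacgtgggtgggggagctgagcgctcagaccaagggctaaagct
Atp5g2: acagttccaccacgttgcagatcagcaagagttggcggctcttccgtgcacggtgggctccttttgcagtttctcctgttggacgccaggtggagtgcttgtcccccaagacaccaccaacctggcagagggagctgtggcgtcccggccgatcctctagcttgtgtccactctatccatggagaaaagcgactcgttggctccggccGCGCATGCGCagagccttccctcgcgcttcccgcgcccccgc
Atp5g3: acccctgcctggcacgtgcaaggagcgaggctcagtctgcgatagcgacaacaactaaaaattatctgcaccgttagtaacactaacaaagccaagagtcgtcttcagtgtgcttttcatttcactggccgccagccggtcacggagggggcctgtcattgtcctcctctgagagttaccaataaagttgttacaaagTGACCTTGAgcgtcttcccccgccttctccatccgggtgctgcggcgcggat
Sdha holds the NRF1 letters 3 times, the last of them next to the start of the gene, and Atp5g2 holds them on both strands at 1 place. Atp5g3 holds the ERR letters on the other strand, and a further NRF1 match in its window lies past the start and is not shown. Atp5g1 holds none of the 4 motifs.

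The genes of the rest of the chain were read from lists of symbols. Complex I, which feeds electrons from NADH, had 36 nuclear genes tested, all 36 with a log2 fold change below 0 and a median of -0.65. Of these *Ndufb11* was called lower with all 6 mice (2.78%, near the 1.90% of all genes). Without NCD mouse 1, 28 were called lower (77.8%, against 10.1% of all genes). Among the 36 is 1 gene annotated as a pseudogene, *Ndufs5-ps*. *Cyc1*, the haem-bearing cytochrome c1 of complex III, is outside the symbol rule and had 102, 217 and 228 TMM CPM on NCD and 80.3, 82.7 and 74.7 on HFD. Its diets were apart, with a log2 fold change of -1.20 with all mice (edgeR adjusted p = 0.0724), and it was called lower without NCD mouse 1 at -1.48 (edgeR adjusted p = 0.00544), as were *Ndufa4*, a subunit of complex IV, at -0.85 and *Cycs*, the cytochrome c of somatic cells, at -0.82. *Atpif1*, which inhibits ATP hydrolysis by complex V, had 38.6, 19.0 and 17.1 TMM CPM on NCD and 42.0, 30.4 and 34.9 on HFD. It was thus low in NCD mice 2 and 3 alone and was called higher without NCD mouse 1 at 1.00 (edgeR adjusted p = 0.0159), against 0.52 with all mice (adjusted p = 0.349).

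Among 15 regulators of these genes, none was called by edgeR with all 6 mice, where it called 1.90% of all genes lower and 5.58% higher. An unadjusted p under 0.05 was reached by 3, where 29.7% of all genes reached it. DESeq2 called *Ppargc1a* and *Ppara* lower (13.3%, near the 10.4% of all genes). Without NCD mouse 1 edgeR called 5 lower (33.3%, against 10.1% of all genes). *Ppargc1a*, which encodes the coactivator PGC-1alpha, had 2.13, 6.64 and 6.92 TMM CPM on NCD and 2.51, 1.68 and 0.861 on HFD. NCD mouse 1 lay within the HFD range, and the log2 fold change was -1.64 with all mice and -2.00 without it (edgeR adjusted p = 0.134 and 0.0309). *Esrra*, which encodes the orphan receptor that acts through ERR sites, had -0.26 and -0.46 (edgeR adjusted p = 0.493 and 0.0387), and *Ppara*, *Pparg* and *Polrmt* were the other genes called lower. *Nrf1*, *Gabpa* and *Yy1*, whose products bind the other motifs, had log2 fold changes of -0.043, 0.011 and -0.13 with all mice and 0.21, 0.15 and -0.080 without NCD mouse 1, none of them called.

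Marker genes of several cell types moved with the diets and between the NCD mice, and their part in the member values was not tested. The 14 adipocyte markers summed to 6429, 24518 and 33237 TMM CPM on NCD and to 17170, 18836 and 14171 on HFD, and without NCD mouse 1 edgeR called 6 of the 14 lower, with a median log2 fold change of -0.85. The 14 macrophage markers summed to 706, 1521 and 1297 TMM CPM on NCD and to 7090, 3959 and 4760 on HFD, with 9 of the 14 called higher with all mice and 13 without NCD mouse 1. The 7 stromal progenitor markers summed to 1016, 1636 and 1326 TMM CPM on NCD and to 3200, 4503 and 3080 on HFD, with *Col1a1* called higher with all mice and *Col3a1* as well without NCD mouse 1. The 6 endothelial markers summed to 231, 675 and 788 TMM CPM on NCD and to 987, 818 and 806 on HFD, with none called with all mice by edgeR (1 had an unadjusted p under 0.05, and DESeq2 called *Cldn5* higher) and *Pecam1* and *Cldn5* called higher without NCD mouse 1. Summed over the macrophage, stromal and endothelial lists, every HFD mouse was above every NCD mouse. With all 6 mice 1 gene in each of these lists had a log2 fold change below 0. Without NCD mouse 1 the numbers were 1, 0 and 2. Of the adipocyte markers 4 lay above 0 with all mice and 3 without NCD mouse 1. Over all genes edgeR called 5.58% higher with all mice, and 10.7% higher and 10.1% lower without NCD mouse 1. With all 6 mice DESeq2 called 13 of the 14 macrophage and 5 of the 7 stromal progenitor markers higher, and 3 of the 14 adipocyte markers lower. Over all genes DESeq2 called 12.5% higher and 10.4% lower, and 29.7% had an unadjusted p under 0.05 by edgeR. The 8 smooth muscle markers summed to 6786 TMM CPM in NCD mouse 1 and to 298 to 843 in the other 5 mice. When the seminal vesicle genes were taken out of the totals, the members summed to 6402, 9605 and 10305 CPM on NCD and to 5704, 5836 and 5848 on HFD, so that every NCD mouse remained above every HFD mouse.

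**Figure D5:**
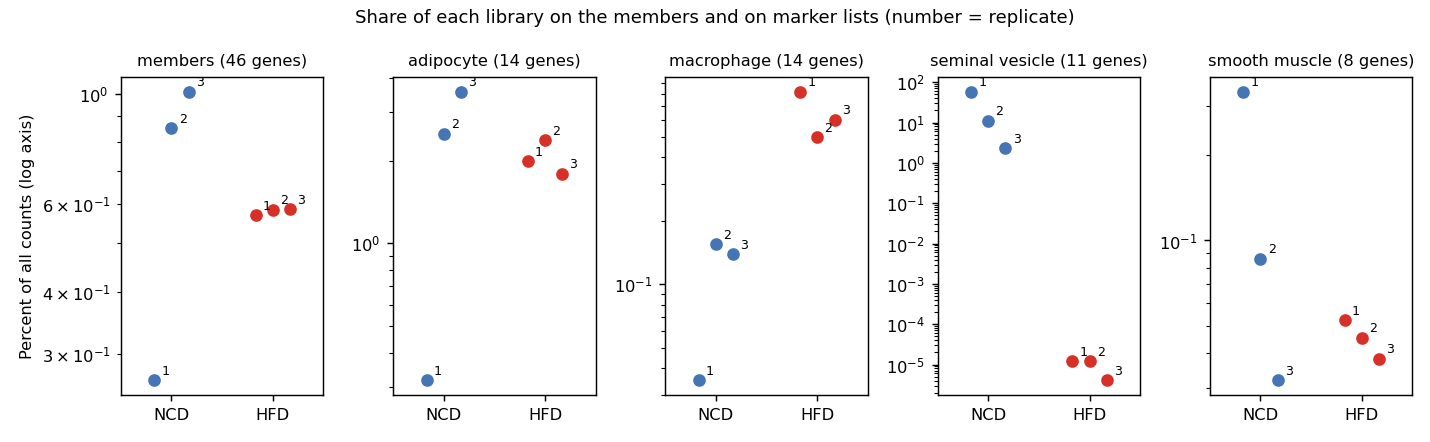
Percent of all counts of a library (vertical axes, logarithmic and different in each panel) on the 46 members and on 4 marker lists, for each NCD (blue) and HFD (red) mouse. NCD replicate 1 is lowest for the members, adipocyte and macrophage genes and highest for seminal vesicle and smooth muscle genes, and the macrophage share is higher in every HFD mouse than in any NCD mouse.

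Within the members, the fold change varied with the level. Across the 45 tested members Spearman's rho between the mean level and the log2 fold change was -0.574 with all mice and -0.543 without NCD mouse 1, and across the 40 without the tissue isoforms it was -0.441 and -0.455. Over all genes tested that have a length the values were -0.0501 and -0.0511. These are correlations across genes measured in the same libraries, which are not independent replicates. Transcript length gave -0.272 and -0.195 over the 45 members and -0.196 and -0.150 over the 40 without the tissue isoforms. Over all genes tested it gave -0.0562 and -0.00644. Of these 40, the 20 longer members had a median log2 fold change of -0.66 with all mice, against -0.52 for the 20 shorter ones.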

How the data were processed

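For gWAT of 3 NCD and 3 HFD mice, the authors deposited a table of raw read counts, in which each mouse has its own column and no normalization was applied. Total RNA was extracted with TRIzol, libraries were made with a TruSeq mRNA kit (the stranded version per the labels) and sequenced on a NovaSeq. The submitters' processing notes name bcl2fastq 2.20.0, Trimmomatic, HISAT2 2.1.0, StringTie 1.3.4d, DESeq2 and the build GRCm38 (mm10) without saying what each was used for, and none of the sources says whether strand was used in counting, so that reads of overlapping antisense genes may be included. The third HFD mouse carries the number 4 in its column name. A column without a sample was not found (0 columns).

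Symbols for 19742 of 19790 gene identifiers came from NCBI RefSeq (GRCm38.p6), and the other 48 held 0.629% of the counts. A further 15 annotated symbols that match the rule, 14 of them pseudogenes, are not among these genes. Exon and transcript lengths came from GENCODE vM21. Genes past filterByExpr (a minimum count of 10 and a minimum total of 15) were TMM-scaled and tested with edgeR 4.0.16 (glmQLFit and glmQLFTest, R 4.3.3) across all genes, with Benjamini-Hochberg adjustment and a threshold of 0.05. Standard errors are the absolute log2 fold change over the root of F. The common biological coefficient of variation was 0.424, and 0.288 without NCD mouse 1. Isoform ratios were compared by exact permutation tests. The TMM factor was 0.496 in NCD mouse 1 and 1.02 to 1.27 in the other mice. Counting error is small for most members at this depth, and the spread between mice limits the precision. No pair of replicates was within sampling noise (chi-square over its degrees of freedom at least 111), so none was counted as a duplicate. The labels call the replicates biological. Replicate numbers did not pair the mice (correlations of deviations -0.0565, -0.0457 and 0.00965).

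The procedure was tested on simulated data with 200 genes changed by mixed folds. With all 6 mice 10.5% of them were recovered, with 4.55% of calls false (15241 genes), and without NCD mouse 1 31.0% were recovered, with 3.12% false (15510 genes). All simulated mice shared the same mean for each unchanged gene, so the seminal vesicle transcripts of NCD mouse 1 were not simulated. The simulation therefore cannot show how the test behaves with such a library. Each comparison had a single run with few calls, so the shares of false calls are imprecise.

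The members and all gene lists were chosen with earlier results of these data known. Every member could be named, and values per mouse were given for the 3 members with the largest change in each complex, for tissue isoforms and partners, for members the study measured by other assays, and for the 2 members per complex with the smallest adjusted p among those whose call differed without NCD mouse 1. The values per mouse of *Cox7a2l* and *Atp5d*, and of *Cyc1*, *Atpif1*, *Ppargc1a*, *Cox20* and *Immt* from the other lists, were added after they had been seen. Alternatives were no filter, median-of-ratios, upper-quartile and total-count scaling, removal of the 11 seminal vesicle genes, DESeq2 1.42.0, limma 3.58.1, a replicate block, leaving out each mouse and, for ratios, no length, another pseudocount and, chosen after seeing the data, the length of the principal transcript. Motif letters are short core forms from general knowledge. Those of NRF1 and YY1 were shortened to 9 letters after a search with longer forms had been seen, and the shorter letters match more members and more genes overall. Plots used matplotlib 3.10.9 (Python 3.11.15).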

Additional observations from a re-analysis of the deposited data

How the results depend on the processing

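The number of members called lower was 1 with all 6 mice, and it was 0 without a filter on low counts, with upper-quartile scaling, with total counts alone and with the replicate block, 2 with limma and 13 with DESeq2. Leaving out 1 mouse gave 0 to 34, with 34 without NCD mouse 1 and 0 without any other, where only 2 to 7 genes of the whole table were called. The ranges when 1 mouse was left out were 0 to 4 for complex II, 0 to 7 for complex III, 0 to 10 for complex IV and 0 to 13 for complex V, and DESeq2 called 2, 4, 1 and 6. In complex III, whose 1 call is *Uqcrc2*, the count was 0 without the filter, with upper-quartile scaling, with total counts alone and with the replicate block, and in complex V limma called 1. Members called higher numbered 0 with all 6 mice, and 1, *Cox6a2* of complex IV, with total counts alone, with the seminal vesicle genes removed, with DESeq2 and without NCD mouse 1 (0 to 1 over the mice left out).

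Total counts alone gave medians of -0.14 for all members, -0.27, -0.22, -0.045 and -0.056 for complexes II to V, and turned *Sdhc* to 0.001, *Uqcrq* to 0.21, *Cox6a1* to 0.10, *Cox6c* to 0.046, *Cox7a2l* to 0.27, *Atp5e* to 0.21, *Atp5g2* to 0.081, *Atp5j2* to 0.076 and *Atp5pb* to 0.005, none of them called. The log2 ratio of the mean summed level over total counts was -0.29 for all members, -0.35, -0.076 and -0.35 for complexes III, IV and V. With 1 mouse left out, *Cox4i2* ranged from -0.058 (without NCD mouse 1) to 0.63, *Cox8b* from -0.86 to 0.27 (without NCD mouse 3) and the log2 ratio of Cox8c to Cox8a from -0.15 (without HFD mouse 1, which holds all counts of Cox8c) to 2.43. The cause of the other changes was not tested. Median-of-ratios scaling changed no call of a member.

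The replicate block, whose numbers do not pair the mice, called 0 members and 12 genes in all, and the median of the members was -0.46. Depth limits Cox6a2 and Cox8c, and with 3 mice a diet the ratios cannot pass a threshold.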

Other observations

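Of the 35 tested assembly factors of complexes II to V, none was called by edgeR with all 6 mice. An unadjusted p under 0.05 was reached by 8, where 29.7% of all genes reached it. DESeq2 called 2 lower, where it called 10.4% of all genes lower. Without NCD mouse 1 edgeR called 8 lower (22.9%, against 10.1% of all genes), *Bcs1l*, *Ttc19*, *Cox15*, *Cox16*, *Cox20*, *Taco1*, *Tmem70* and *Lrpprc*. The median log2 fold change of the 35 was -0.31 with all mice and -0.45 without NCD mouse 1. The difference from the members was not tested. *Cox20*, which chaperones a core subunit of complex IV, had 17.0, 29.0 and 34.6 TMM CPM on NCD and 14.4, 15.1 and 16.6 on HFD, with log2 fold changes of -0.81 and, without NCD mouse 1, -1.03 (edgeR adjusted p = 0.121 and 0.0101).

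Of 7 genes for supercomplex assembly and cristae, none was called with all 6 mice by edgeR. An unadjusted p under 0.05 was reached by 2, near the same 29.7%, and DESeq2 called 1 lower (14.3%, against 10.4% of all genes). Without NCD mouse 1 edgeR called 5 lower (71.4%, against 10.1% of all genes). *Immt*, the core of the cristae junction complex, had 126, 244 and 271 TMM CPM on NCD and 133, 120 and 112 on HFD, with log2 fold changes of -0.81 and, without NCD mouse 1, -1.07 (edgeR adjusted p = 0.143 and 0.00838). NCD mouse 1 lay among the HFD mice for this gene.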
